A study of Homo sapiens with 4 samples.

Results

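The transcripts of 34 genes that make or control cholesterol, fatty acids and triglycerides were followed in H1792, an established line of human lung cancer cells. The genes were taken as a named pathway set and matched by gene symbol, and all 34 were found among the 61228 features of the count tables. The cells carry the genotype label WT and were kept for 96 h with the solvent DMSO or with ACBI1, a PROTAC that brings SMARCA2, SMARCA4 and PBRM1, components of SWI/SNF chromatin remodelling complexes, to the VHL ubiquitin ligase for degradation. The labels write the dose as 1 mM, which the counts cannot check. Each group held 2 libraries from this single line, numbered replicates 1 and 2, and the labels do not say whether the replicates were separate cultures, so p-values measure only the spread between these libraries. All values below are CPM, counts per 1000000 counts after TMM scaling (a correction for differences in RNA composition), unless a log2 scale is named.

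Cholesterol is built from acetyl-CoA in a long chain of steps: the mevalonate pathway makes isoprenoid units, these are joined to squalene, and squalene is folded into lanosterol and trimmed to cholesterol. The genes of this chain are classical targets of SREBP2, a transcription factor held in the endoplasmic reticulum by SCAP and the INSIG proteins while sterols are plentiful and released for cleavage when they are scarce. SREBP1 governs fatty acid synthesis in a related way, and liver X receptors (LXR), which sense oxysterols, act on sterol export. Rapidly growing tumour cells often run both lipid pathways strongly.

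Promoter windows give a first view of what these genes share beyond their function. RefSeq windows on GRCh38.p14, 300 bases long from 250 before to 50 after a gene's start, were found for 28 of the 34 genes; SQLE, FDFT1, ACAT2, FASN, DGAT1 and DGAT2 had none in the table used. Sequence words were searched on both strands, with a gene counted once when any of its windows matched: TCACNCCAC, the core of a sterol regulatory element to which SREBP binds, CACGTG, the E-box, and CCAAT, the word read by the factor NF-Y. CCAAT was found in 13 of the 15 sterol enzymes with a window (86.7%), in 4 of the 7 fatty acid and triglyceride enzymes (57.1%) and in 3 of the 6 sensing and transport genes. Of all genes with a window 39.7% had the word, and over the genes tested here 42.3%. The strict sterol regulatory element core occurred in SREBF2 alone among the 28, against 1.39% of all genes. The E-box occurred in LSS, SC5D, SCAP and INSIG1, that is in 14.3% of the 28. It occurred in 8.77% of all genes and in 12% of the genes tested here, so the share of the 28 was close to the latter. No match of one word overlapped a match of another in these windows. A match describes letters only and does not show binding.

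The 250 bases before the start of 4 genes are shown because these genes behave differently in the counts below: FDPS and SREBF2 had positive log2 changes, INSIG1 followed the replicate number, and TM7SF2 was lower with ACBI1. Capitals mark CCAAT or its reverse complement ATTGG, the sterol regulatory element core in SREBF2 and the E-box in INSIG1. All 4 lie on the plus strand, and the stretches are chr1:155308616-155308865 for FDPS, chr22:41832855-41833104 for SREBF2, chr7:155297628-155297877 for INSIG1 and chr11:65111622-65111871 for TM7SF2.
FDPS: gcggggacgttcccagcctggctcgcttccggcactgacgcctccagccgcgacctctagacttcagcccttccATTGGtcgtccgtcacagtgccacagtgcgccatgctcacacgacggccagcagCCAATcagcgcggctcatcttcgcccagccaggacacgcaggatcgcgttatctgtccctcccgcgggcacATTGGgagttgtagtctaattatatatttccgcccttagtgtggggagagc
SREBF2: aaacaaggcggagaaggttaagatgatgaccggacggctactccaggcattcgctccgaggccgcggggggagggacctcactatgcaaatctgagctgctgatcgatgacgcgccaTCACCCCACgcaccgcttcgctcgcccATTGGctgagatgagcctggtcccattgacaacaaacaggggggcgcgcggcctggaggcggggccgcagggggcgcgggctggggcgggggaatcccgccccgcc
INSIG1: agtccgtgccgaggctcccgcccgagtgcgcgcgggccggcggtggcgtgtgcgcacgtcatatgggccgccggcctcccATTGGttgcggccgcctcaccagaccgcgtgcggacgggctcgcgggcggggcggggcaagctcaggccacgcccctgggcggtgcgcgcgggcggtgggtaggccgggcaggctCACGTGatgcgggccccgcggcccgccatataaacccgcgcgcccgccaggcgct
TM7SF2: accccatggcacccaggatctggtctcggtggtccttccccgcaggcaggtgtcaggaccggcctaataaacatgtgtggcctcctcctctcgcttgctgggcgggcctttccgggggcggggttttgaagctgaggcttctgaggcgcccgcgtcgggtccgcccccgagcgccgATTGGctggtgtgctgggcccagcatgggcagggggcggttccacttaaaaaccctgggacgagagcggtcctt
The FDPS stretch held 3 CCAAT words, SREBF2 and TM7SF2 held 1 each, and INSIG1 held 1 beside its E-box. FDPS and TM7SF2 thus share the CCAAT word, while their fitted log2 changes with ACBI1 were 1.02 and -1.98, neither of which passed the test.

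Counts assigned to genes ranged from 64281850 to 86010100 per library, and 19159 genes passed the filter on low counts, among them all 34 lipid genes. Epithelial keratins were present as a lung carcinoma line would have them. However, the 6 epithelial markers checked summed to 981 and 1035 CPM in the DMSO libraries and to 323 and 202 in the ACBI1 libraries. Most of this sum was KRT7, at 678 and 680 CPM with DMSO and 179 and 60.3 CPM with ACBI1. Of the 5 epithelial markers tested, 4 keratins were called lower. EPCAM went the other way, from 5.38 and 2.78 CPM to 15.6 and 4.84 CPM (log2 change 1.32, edgeR adjusted p 0.179). NKX2-1 and SCGB1A1, markers of lung lineage, were at 0 counts in every library, and CDH1 had 4 to 16 counts. Of 6 markers of other cells, CD3E was at 0 everywhere. The sum of the 6 went from 12.6 and 48.5 CPM to 0.0893 and 0.0762 CPM, mostly through the endothelial gene PECAM1. Only 2 of the 6 were tested, and both were called lower: PECAM1 (log2 change -10.1, edgeR adjusted p 0.00431) and VWF (edgeR adjusted p 0.0130). VWF had 24 and 23 counts with DMSO and 0 and 0 with ACBI1. The part of these shifts in the lipid results was not tested. In bulk RNA, fewer cells of a kind and less RNA per cell cannot be told apart.

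The comparison of ACBI1 with DMSO asks which lipid transcripts changed when the cells received the degrader. Only 3 of the 34 genes passed edgeR's quasi-likelihood test at a Benjamini-Hochberg adjusted p under 0.05: DGAT2 and ACACA rose and ELOVL6 fell. Over all 19159 genes 17.4% passed, 6.75% higher and 10.6% lower, so 3 of 34 is not above the background. All 3 belong to fatty acid or triglyceride synthesis, and none of the 18 sterol enzymes and none of the 6 sensing and transport genes passed. At an unadjusted p under 0.05 there were 6 higher and 3 lower among the 34, of which 2 higher and 1 lower were sterol enzymes, beside 15.4% and 18.5% of all tested genes. With DESeq2, 7 of the 34 were called, 4 higher and 3 lower, beside 23.5% of all genes (9.95% higher and 13.6% lower): FDPS and FASN were added to the genes called higher, and TM7SF2 and INSIG2 to those called lower. With the replicate number as a further term in the edgeR model, 20 of the 34 were called, 16 of them higher, beside 41.3% of all tested genes and 19.4% higher. Among them were FASN, SREBF2 and all 7 mevalonate pathway genes, called higher, and TM7SF2 and INSIG2, called lower.

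**Figure D1:**
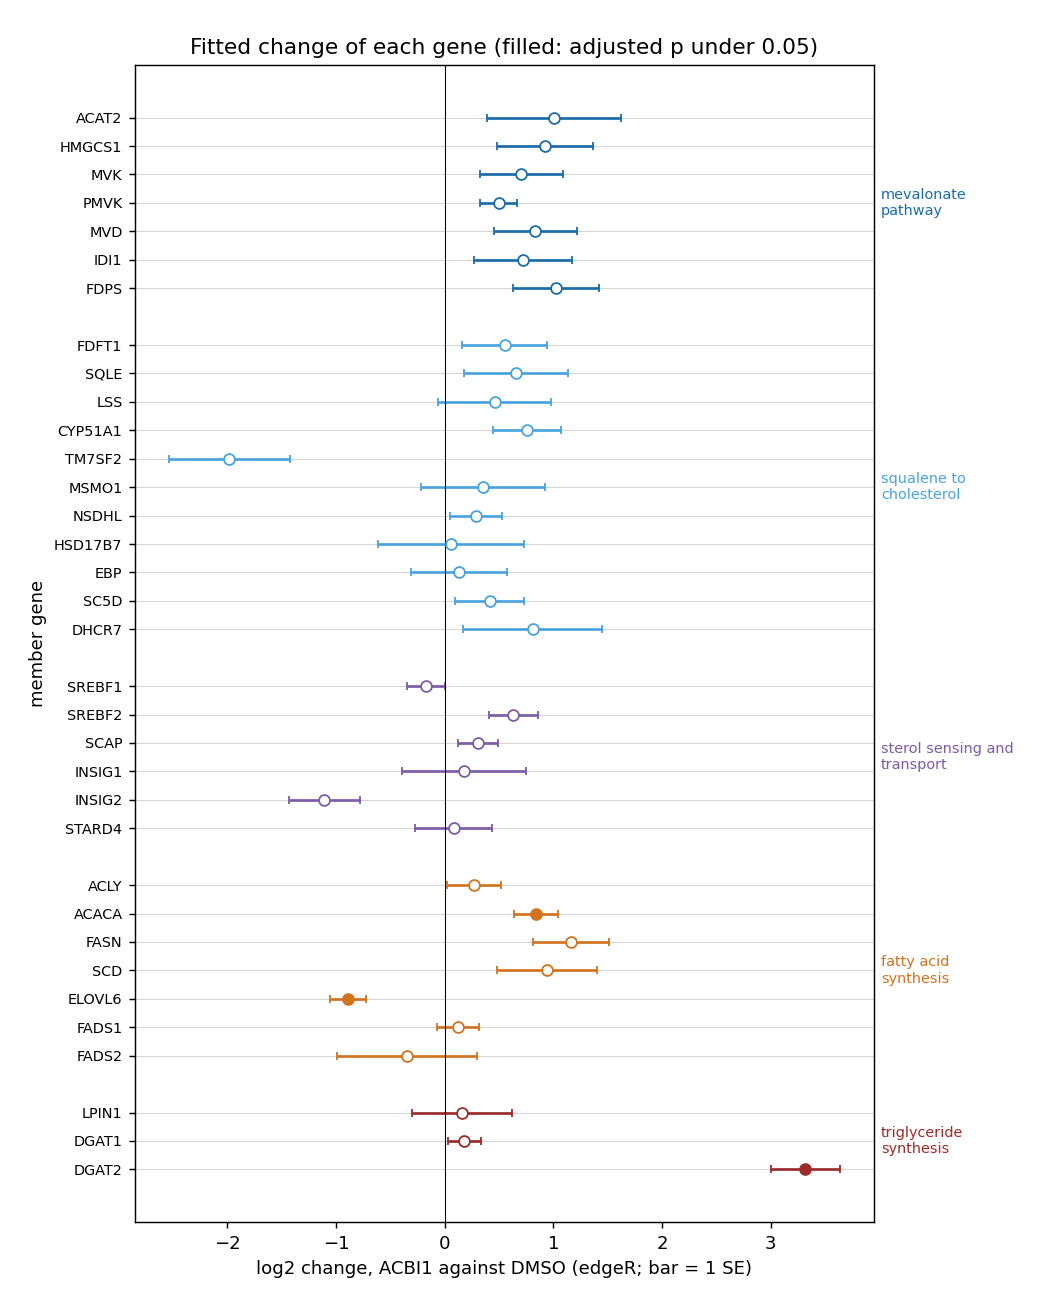
Fitted log2 change with ACBI1 against DMSO (horizontal axis, edgeR, bars of 1 SE, n = 2 libraries per group) for each of the 34 genes, ordered by role on the vertical axis; filled circles passed an adjusted p under 0.05. DGAT2 stands far to the right at 3.32, TM7SF2 and INSIG2 lie furthest to the left, and most sterol enzymes lie to the right of 0 with wide bars.

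The largest change was that of DGAT2, which encodes one of the enzymes that add the last acyl chain to form triglyceride (chr11:75759512-75801535 on GRCh38). DGAT2 stood at 7.15 and 5.06 CPM in DMSO replicates 1 and 2 and at 76.0 and 45.9 CPM in ACBI1 replicates 1 and 2. Both treated libraries lay far above both controls. The means were 6.10 ± 1.48 and 61.0 ± 21.3 CPM (SD, n = 2), a 9.98-fold rise, or a log2 change of 3.32 (SE 0.32, edgeR adjusted p 0.00380). The log2 ratio was 3.41 in the pair of replicates numbered 1 and 3.18 in the pair numbered 2. Unlike most of the other genes, DGAT2 was lower in replicate 2 than in replicate 1 of either group. DGAT1, an unrelated protein that catalyses the same step, was at 28.0 and 27.8 CPM with DMSO and 31.3 and 32.0 CPM with ACBI1, a log2 change of 0.18 (95% interval from -0.19 to 0.56). Per kilobase of exon, DGAT2 went from 0.772 to 7.71 CPM, while DGAT1 was at 6.75 and 7.66, so that the level of DGAT2, the lowest of the 34 genes with DMSO, came close to that of DGAT1 with ACBI1. LPIN1, the phosphatidate phosphatase that supplies diacylglycerol, followed another pattern, with 61.9 and 99.8 CPM in DMSO replicates 1 and 2 and 49.6 and 131 CPM in ACBI1 replicates 1 and 2. The treated libraries of LPIN1 lay on either side of the controls, and its log2 change was 0.16 (SE 0.46, edgeR adjusted p 0.842).

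**Figure D2:**
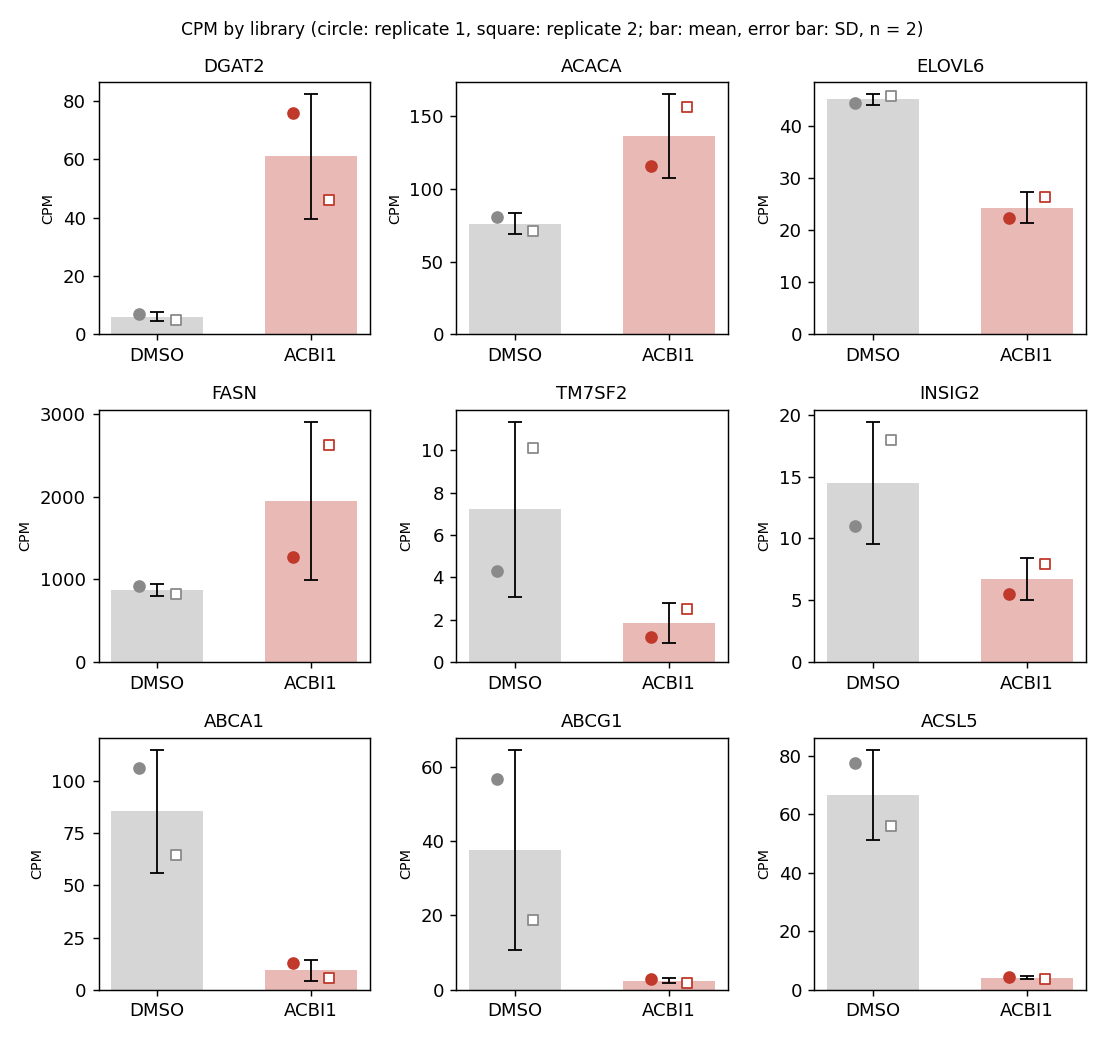
CPM in each library (vertical axis, from 0) for 6 of the lipid synthesis genes and for ABCA1, ABCG1 and ACSL5; bars are group means, error bars the SD of n = 2, circles replicate 1 and squares replicate 2. DGAT2 is higher and ELOVL6, TM7SF2, INSIG2, ABCA1, ABCG1 and ACSL5 are lower with ACBI1 in both replicates, while the ACBI1 replicates of FASN lie far apart.

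Fatty acid synthesis genes moved in both directions. ACACA, the acetyl-CoA carboxylase that makes malonyl-CoA (chr17:37084988-37406818), was at 80.9 and 70.9 CPM in the DMSO libraries and at 116 and 156 CPM in ACBI1 replicates 1 and 2. The groups did not overlap, as was the case for 63.2% of all tested genes. Its means of 75.9 ± 7.10 and 136 ± 28.7 CPM (SD, n = 2) gave a log2 change of 0.84 (SE 0.20, edgeR adjusted p 0.0384). With ACACA the log2 change stayed positive with any 1 library left out, but it no longer passed without ACBI1 replicate 2 (0.60, adjusted p 0.180) or without DMSO replicate 2 (0.74, adjusted p 0.0816). ELOVL6, which lengthens saturated fatty acids made by FASN (chr4:110045846-110199199), was at 44.5 and 45.8 CPM with DMSO and at 22.3 and 26.4 CPM with ACBI1. Replicates agreed closely here, and the means of 45.1 ± 0.981 and 24.4 ± 2.94 CPM (SD, n = 2) gave a 1.85-fold fall, a log2 change of -0.89 (SE 0.17, edgeR adjusted p 0.0201). Without ACBI1 replicate 1 the change of ELOVL6 was -0.76 and no longer passed (adjusted p 0.123).

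FASN, the fatty acid synthase itself, had the highest mean CPM of the 34 in both groups, although SCD was higher in DMSO replicate 2. Its values were 924 and 820 CPM in the DMSO libraries, 1273 CPM in ACBI1 replicate 1 and 2627 CPM in ACBI1 replicate 2. Both treated libraries were above both controls, but they differed from each other by more than the lower of them differed from the controls. The log2 change of 1.16 (SE 0.35) had an edgeR adjusted p of 0.0704 and did not pass, while DESeq2 called it (adjusted p 0.00706). Without ACBI1 replicate 2 the log2 change of FASN was 0.54. SCD, the stearoyl-CoA desaturase that puts the first double bond into fatty acids, showed 593 and 956 CPM with DMSO and 841 and 2127 CPM with ACBI1. Its groups overlapped, and the log2 change was 0.94 (SE 0.46, edgeR adjusted p 0.209). Per kilobase of exon SCD had the highest level of the 34, at 144 CPM with DMSO, followed by FASN at 93.1 and ACLY at 44.5.

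ACLY, which makes cytosolic acetyl-CoA from citrate, was at 219 and 246 CPM in DMSO replicates 1 and 2 and at 216 and 344 CPM in ACBI1 replicates 1 and 2. Only the second treated library of ACLY was above the controls, and its log2 change was 0.27 (95% interval from -0.34 to 0.88). The desaturases of polyunsaturated fatty acids lie next to each other on chromosome 11, and their exons overlap on opposite strands. Of the exonic length, 5.57% of FADS1 is shared with FADS2 and MIR1908, and 4.89% of FADS2 with FADS1 and FEN1. Reads where genes on opposite strands overlap could not be told apart if strand was not used in the counting, which is not stated. FADS1, the delta-5 desaturase, was level, with 196 and 256 CPM against 237 and 257 CPM. FADS2, the delta-6 desaturase, was at 59.0 and 168 CPM with DMSO and at 42.4 and 136 CPM with ACBI1. For FADS2 the difference between replicate numbers (log2 of 1.51 in DMSO and 1.68 in ACBI1) was larger than that between treatments (log2 change -0.35, 95% interval from -1.92 to 1.22).

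As a group, the sterol enzymes were higher in replicate 2 than in replicate 1, and most of all in ACBI1 replicate 2. Summed over the 18 enzymes, the level was 673 and 1071 CPM in DMSO replicates 1 and 2 and 810 and 2027 CPM in ACBI1 replicates 1 and 2. The second control library thus lay above the first treated library. Of the 18 enzymes, 17 were higher in replicate 2 than in replicate 1 in both groups, against 33.5% of all tested genes. ACBI1 replicate 2 was the highest of the 4 libraries for 16 of the 18, against 23.3% of all tested genes. The median log2 difference of replicate 2 from replicate 1 was 0.66 in DMSO and 1.21 in ACBI1 for these enzymes. For the 10 fatty acid and triglyceride enzymes the same medians were 0.11 and 0.55, and over all tested genes they were close to 0. Replicate 2 was above replicate 1 in both groups for 6 of these 10 and for 5 of the 6 sensing and transport genes. ACBI1 replicate 2 was the highest library for 7 of the 10 and for 4 of the 6. The pattern was thus not particular to the sterol enzymes. What differed between the libraries with different numbers is not given in the labels, and its part in these values was not tested.

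**Figure D3:**
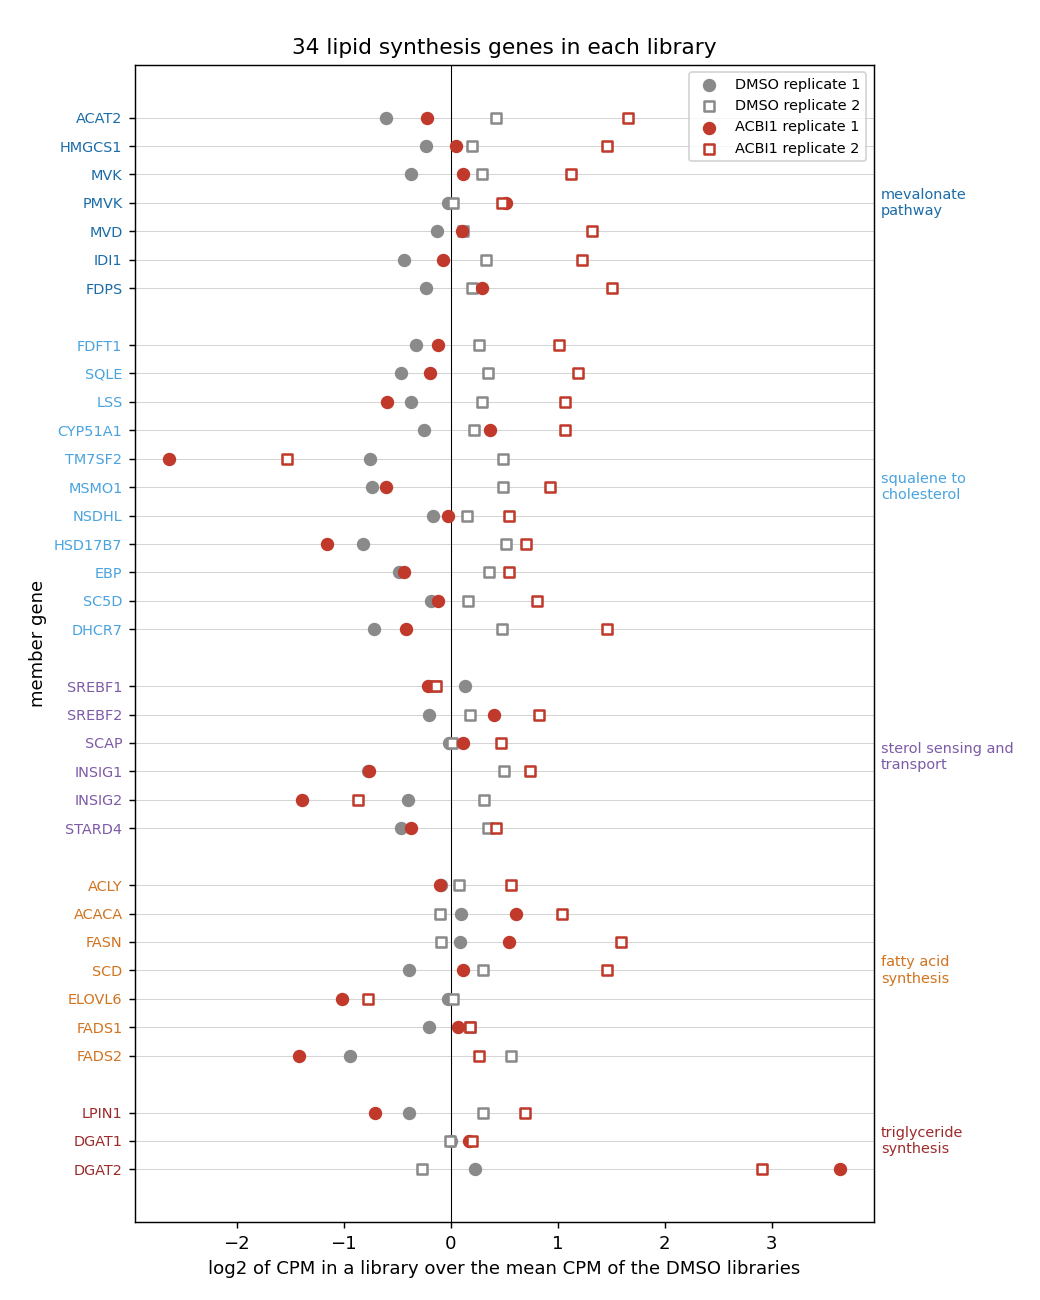
Each point is 1 library: the log2 ratio of its CPM to the mean CPM of the DMSO libraries (horizontal axis) for each of the 34 genes (vertical axis, by role); grey is DMSO, red is ACBI1, filled circles are replicate 1 and open squares replicate 2. For most sterol enzymes the open squares lie to the right of the circles of the same colour, and the open red square lies furthest to the right.

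Mevalonate pathway genes all had positive log2 changes, also in each of the same-numbered pairs, and none of the 7 passed in the model of treatment alone, whereas a model that also held the replicate number called all 7 higher. FDPS, the farnesyl diphosphate synthase, was at 95.6 and 128 CPM with DMSO and at 137 and 317 CPM with ACBI1. It was one of 2 genes of this group whose treated libraries both exceeded both controls. The log2 change of FDPS was 1.02 (SE 0.40, edgeR adjusted p 0.129), or 0.29 without ACBI1 replicate 2, and DESeq2 called it (adjusted p 0.0437). PMVK, the phosphomevalonate kinase, was the other, and it differed from the rest in having almost no spread between replicates. PMVK was at 16.1 and 16.7 CPM with DMSO and 23.4 and 22.8 CPM with ACBI1, a log2 change of 0.50 (95% interval from 0.08 to 0.91, edgeR adjusted p 0.0985).

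HMGCS1, which forms HMG-CoA at the head of the pathway, was at 45.9 and 61.7 CPM with DMSO and 55.7 and 148 CPM with ACBI1. MVD, the mevalonate diphosphate decarboxylase, was at 54.8 and 64.7 CPM with DMSO and 64.4 and 149 CPM with ACBI1. In both genes ACBI1 replicate 1 lay within the range of the controls and ACBI1 replicate 2 lay above it. IDI1, the isomerase that makes dimethylallyl diphosphate, showed the same order, with 45.8 and 78.0 CPM against 58.8 and 145 CPM. The kinase MVK was at 12.9 and 20.3 CPM against 18 and 36.3 CPM. ACAT2, the cytosolic thiolase that joins acetyl-CoA units, was at 13.3 and 27.0 CPM in the controls and at 17.3 and 63.6 CPM in the ACBI1 replicates, whose log2 difference of 1.88 was the widest of the 7 genes. Its exons share 52.3% of their length with genes on the other strand, among them TCP1, and the strand setting of the counting is not stated, so the level of ACAT2 is uncertain. The log2 changes of these 5 genes ran from 0.71 for MVK to 1.01 for ACAT2, with edgeR adjusted p from 0.181 to 0.313.

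Among the 11 enzymes from squalene to cholesterol, TM7SF2 stood apart. TM7SF2, which encodes a sterol reductase that acts on the double bond at carbon 14 (chr11:65111845-65116384), was at 4.29 and 10.1 CPM in DMSO replicates 1 and 2 and at 1.16 and 2.50 CPM in ACBI1 replicates 1 and 2. Both treated libraries lay below both controls, in spite of a wide difference between replicates. The means of 7.21 ± 4.13 and 1.83 ± 0.947 CPM (SD, n = 2) gave a log2 change of -1.98 (SE 0.56, 95% interval from -3.34 to -0.63). The edgeR adjusted p of TM7SF2 was 0.0589 and did not pass, while DESeq2 called the fall (adjusted p 0.00132). The log2 ratio was -1.88 in the first pair and -2.02 in the second. It was the only one of the 18 sterol enzymes with a negative fitted change.

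The other 10 enzymes of this stretch had log2 changes from 0.06 to 0.81. DHCR7, which carries out the last reduction to cholesterol in one branch, was at 67.6 and 155 CPM with DMSO and 83.3 and 307 CPM with ACBI1. Its libraries followed the replicate number more than the treatment: the log2 change was 0.81 (SE 0.64, edgeR adjusted p 0.422), and it was -0.42 without ACBI1 replicate 2. SQLE, the squalene epoxidase, was at 84.2 and 148 CPM against 101 and 265 CPM. FDFT1, the squalene synthase, showed the same order with 92.5 and 139 CPM against 107 and 234 CPM. LSS, the lanosterol synthase, was at 46.2 and 73.6 CPM with DMSO and 39.5 and 125 CPM with ACBI1, and so was lowest and highest in the treated libraries. MSMO1, a sterol methyl oxidase, was at 21.3 and 49.8 CPM against 23.4 and 67.6 CPM.

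SC5D, the lathosterol desaturase, was at 33.7 and 42.7 CPM with DMSO and 35.2 and 66.8 CPM with ACBI1. NSDHL, which acts in removing methyl groups from the sterol ring, was at 22.7 and 28.2 CPM against 25.0 and 37.1 CPM. In both genes only ACBI1 replicate 2 exceeded the controls. EBP, the sterol isomerase, was at 3.84 and 6.92 CPM against 3.99 and 7.84 CPM, and HSD17B7, a keto-reductase, at 4.36 and 11.0 CPM against 3.45 and 12.5 CPM. For HSD17B7 a pseudogene copy, HSD17B7P2, was listed with 67 to 117 counts, and reads may be split between them. The lanosterol demethylase CYP51A1 was at 7.81 and 10.8 CPM against 12 and 19.5 CPM, without overlap between groups. However, 83.2% of its exonic length is shared with other annotated genes, so that many of its reads may have been set aside as ambiguous. The intervals of the log2 change of these genes were wide, from -1.58 to 1.70 for HSD17B7 and from -0.30 to 0.87 for NSDHL, the narrowest.

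The genes that sense sterols were followed next. SREBF2, which encodes SREBP2, was at 169 and 220 CPM with DMSO and at 257 and 345 CPM with ACBI1. The treated libraries lay above the controls, and the ratio was alike in both pairs (log2 of 0.61 and 0.65). The log2 change of SREBF2 was 0.63 (SE 0.23, edgeR adjusted p 0.108) and did not pass. SREBF1, which encodes SREBP1, was at 177 and 146 CPM against 140 and 147 CPM, a log2 change of -0.17 (95% interval from -0.59 to 0.25). SCAP, the escort of the SREBPs, was at 141 and 143 CPM against 154 and 197 CPM (log2 change 0.31, edgeR adjusted p 0.290).

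INSIG1 and INSIG2 encode the related proteins that retain SCAP in the endoplasmic reticulum; INSIG1 is itself a classical SREBP target, whereas INSIG2 is not. INSIG1 was at 44.9 and 109 CPM in DMSO replicates 1 and 2 and at 45.3 and 128 CPM in ACBI1 replicates 1 and 2. It thus followed the replicate number almost alone, with a log2 change of 0.18 (SE 0.57, edgeR adjusted p 0.858). INSIG2 (chr2:118088452-118110997) was at 11.0 and 18 CPM with DMSO and at 5.53 and 7.93 CPM with ACBI1. Its treated libraries lay below both controls, and the log2 ratio was -0.99 in the first pair and -1.18 in the second. The log2 change of INSIG2 was -1.11 (SE 0.33, 95% interval from -1.91 to -0.30), with an edgeR adjusted p of 0.0685 that did not pass, and DESeq2 called the fall (adjusted p 0.0101). STARD4, a carrier of cholesterol between membranes and also an SREBP target, followed the replicate number as INSIG1 did, with 39.1 and 68.8 CPM against 41.8 and 72.6 CPM.

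The same-numbered pairs were then set side by side. In the pair numbered 1, the median log2 ratio of ACBI1 to DMSO was 0.25 over the 18 sterol enzymes and 0.22 over the 10 fatty acid and triglyceride enzymes. In the pair numbered 2, the medians were 0.80 and 0.44. Over all tested genes they were 0.01 and -0.00. Sterol enzymes had a positive ratio in 15 of 18 cases in the first pair and in 17 of 18 in the second, against 6 and 8 of 10 for the fatty acid and triglyceride enzymes. About 50.5% of all tested genes were positive in the first pair and 49.6% in the second. The ratio was larger in the second pair for 16 of the 18 sterol enzymes and for 28 of the 34 genes, against 51.3% of all tested genes. This restates the difference between the ACBI1 replicates, which for these genes exceeded that between the DMSO replicates.

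**Figure D4:**
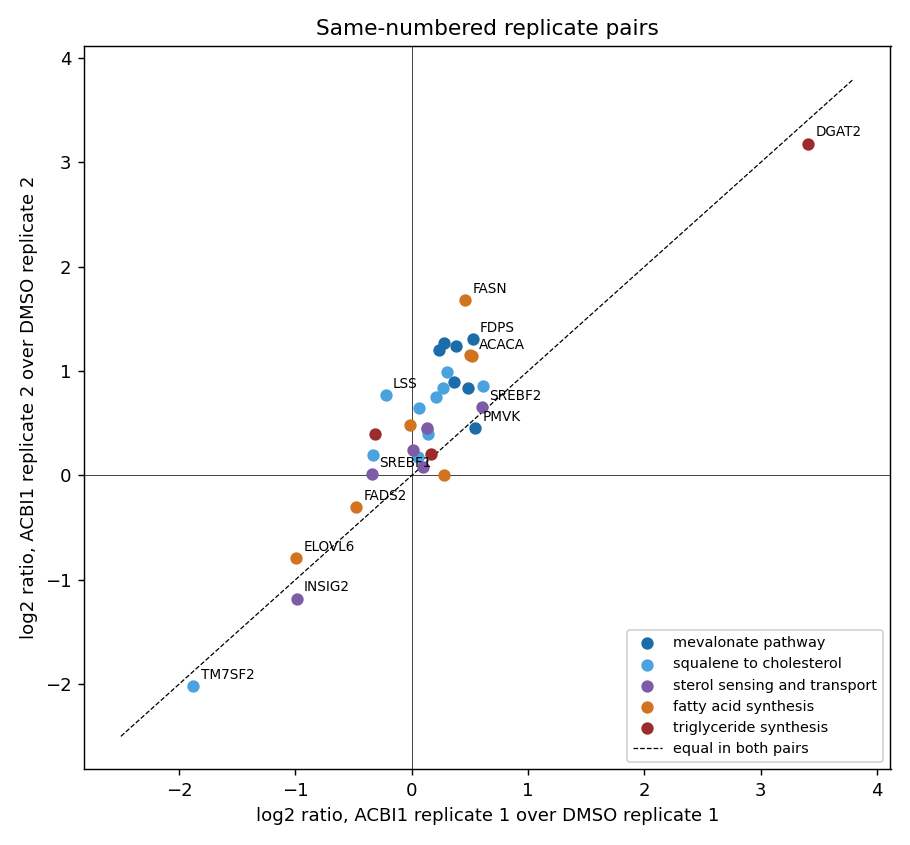
Log2 ratio of ACBI1 to DMSO in the pair of replicates numbered 1 (horizontal axis) and in the pair numbered 2 (vertical axis); each point is 1 of the 34 genes, coloured by role, and the dashed line marks equal ratios. Most sterol enzymes lie above the line, FASN lies furthest above it, and DGAT2, TM7SF2, INSIG2 and ELOVL6 lie near it and away from 0.

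Of the 34 genes, 12 had treated libraries that did not overlap the controls, 9 higher and 3 lower, a share of 35.3% against 63.2% of all tested genes. The 3 lower were TM7SF2, INSIG2 and ELOVL6. The 9 higher were PMVK, FDPS, CYP51A1, SREBF2, SCAP, ACACA, FASN, DGAT1 and DGAT2. In the first pair ACACA had a log2 ratio of 0.52 and FASN one of 0.46, and in the second pair these were 1.14 and 1.68.

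In the fit over all 4 libraries, the median log2 change was 0.61 for the sterol enzymes and 0.23 for the fatty acid and triglyceride enzymes, against 0.01 over all tested genes. The difference between the lists was 0.38 on the log2 scale, but it was 0.03 in the first pair and 0.36 in the second. Without ACBI1 replicate 2 the order turned, with a difference of -0.21 and a median of -0.13 for the sterol enzymes. The fatty acid and triglyceride genes held the 3 calls among the 34 genes, beside 17.4% of all tested genes called in either direction. Their log2 changes ran from -0.89 to 3.32, or from -0.89 to 1.16 without DGAT2. Those of the sterol enzymes ran from -1.98 to 1.02, or from 0.06 to 1.02 without TM7SF2. With all genes kept, the wider range of the fatty acid and triglyceride genes thus rested on DGAT2. These medians carry no test, since genes of a pathway are not replicates.

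**Figure D5:**
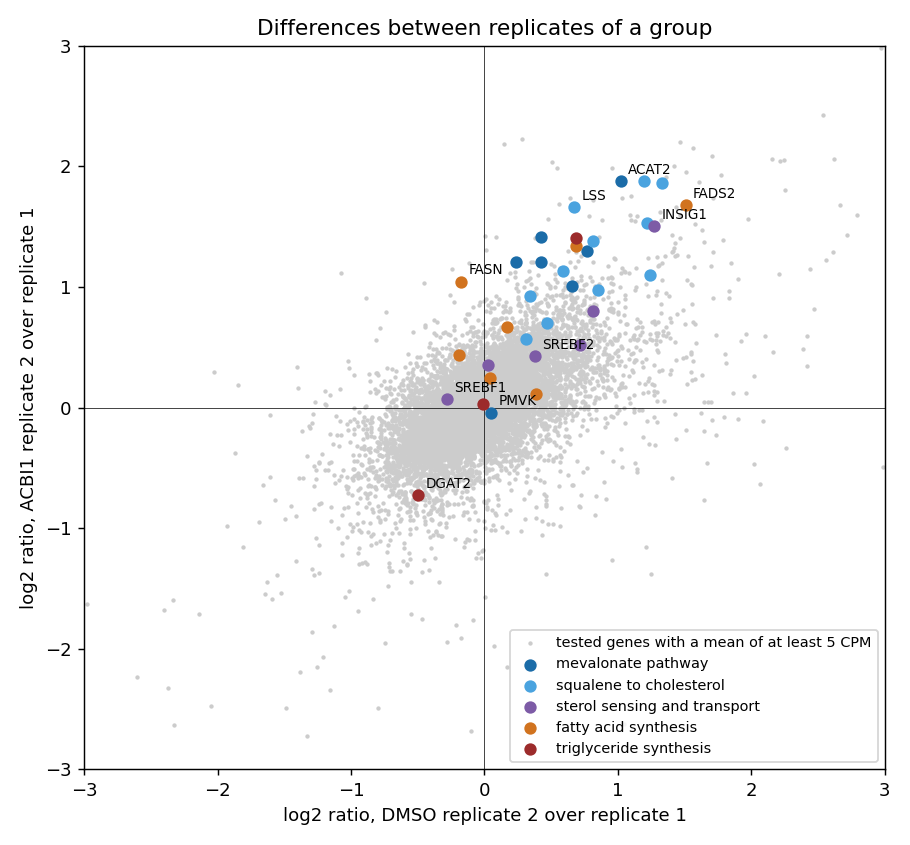
Log2 ratio of replicate 2 to replicate 1 in DMSO (horizontal axis) and in ACBI1 (vertical axis); coloured points are the 34 genes by role and grey points are other tested genes whose mean reached 5 CPM (11 of 11160 lie outside the axes). Sterol enzymes other than PMVK lie in the upper right of the plot, up to 1.88 on the vertical axis, whereas DGAT2 lies in the lower left.

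Other genes of lipid handling were taken from lists set beside the 34. Beside the counts called in these lists stand the shares over all tested genes, 10.6% lower and 6.75% higher. Of 18 genes for sterol uptake, transport and efflux, LXR receptors and LXR targets, edgeR called 8 lower and 0 higher, with a median log2 change of -0.64. The count called lower was 5 without ACBI1 replicate 1 and 4 at an adjusted p under 0.01. GRAMD1B, a carrier of cholesterol from the plasma membrane to the endoplasmic reticulum, fell from 19.5 and 30.5 CPM to 0.223 and 0.763 CPM (log2 change -5.70, adjusted p 0.00460). The LXR target ABCG1, a sterol exporter, fell from 56.8 and 18.6 CPM to 2.87 and 1.92 CPM (log2 change -3.97, adjusted p 0.00994). ABCA1, the exporter that loads cholesterol onto apolipoproteins, went from 106 and 64.7 CPM to 12.8 and 5.81 CPM (log2 change -3.19, adjusted p 0.00870). In each of these 3 genes both treated libraries lay far below both controls.

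CH25H, which makes 25-hydroxycholesterol, was rare and had 91 and 102 counts with DMSO and 8 and 9 with ACBI1 (log2 change -3.49, adjusted p 0.00811). NR1H3, which encodes the receptor LXR-alpha and was picked after its values were seen, fell from 9.85 and 12.2 CPM to 2.88 and 4.32 CPM (adjusted p 0.0205, or 0.0827 without ACBI1 replicate 1). MYLIP, LPCAT3 and SMPDL3A, of the same list, were not called. The log2 change was -0.41 for MYLIP, which marks lipoprotein receptors for degradation (adjusted p 0.163), and -0.61 for SMPDL3A (adjusted p 0.281). It was 0.43 for LPCAT3, which remodels phospholipids (adjusted p 0.256). LPCAT3 shares 65.6% of its exonic length with EMG1 on the other strand, so its level is uncertain. For NR1H2, which encodes LXR-beta, it was -0.07 (adjusted p 0.812). MYLIP, SMPDL3A, LPCAT3 and NR1H2 were also picked after their values were seen.

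Among 12 genes for SREBP transport, cleavage and sterol-regulated degradation, edgeR called 3 lower and 1 higher, beside 10.6% and 6.75% of all tested genes. The count called lower was 1 without ACBI1 replicate 1 and 2 without any 1 of the other libraries. The 3 lower encode SEC24 proteins, which select cargo for the vesicles that carry SCAP and many other proteins from the endoplasmic reticulum. SEC24D fell from 88.1 and 88.2 CPM to 15 and 22.6 CPM (log2 change -2.23, adjusted p 0.00437), and the log2 changes of SEC24A and SEC24C were -1.24 (adjusted p 0.0114) and -0.65 (adjusted p 0.0402). For SEC24B, the remaining SEC24 gene, it was -0.15 (adjusted p 0.537). SEC24C shares 42.9% of its exonic length with AC022400.8 on the other strand, so its level is uncertain. The ubiquitin-conjugating enzyme UBE2G2 was called higher, with a log2 change of 0.68 (adjusted p 0.0426). With 1 library left out the log2 change ran from -0.74 to -0.56 for SEC24C, which then never passed, and from 0.56 to 0.82 for UBE2G2, which passed only without DMSO replicate 1. SEC24C also did not pass with scaling by library size only (-0.56, adjusted p 0.0510). SEC24A did not pass without ACBI1 replicate 1 (-1.09, adjusted p 0.0567). None of the 9 genes of the isoprenoid branch was called, at a median log2 change of -0.13. At an unadjusted edgeR p under 0.05, 2 of these 9 were higher, beside 15.4% of all tested genes.

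Of 23 genes for the supply, elongation and activation of fatty acids, 22 were tested and 2 were called, both lower, a share no larger than the 10.6% called lower over all tested genes. ACSL5, which activates long-chain fatty acids, fell from 77.6 and 55.8 CPM to 4.40 and 3.68 CPM (log2 change -4.04, adjusted p 0.00141). ME1, the malic enzyme that supplies NADPH, fell by 0.81 on the log2 scale (adjusted p 0.0260), and did not pass without ACBI1 replicate 1 (-0.70) or 2 (-0.93). Of 26 genes for glycerolipid assembly and lipid droplets, 20 were tested, 1 was called higher and 2 lower, close to the 6.75% and 10.6% over all tested genes. With 1 library left out, 0 to 2 of them were called higher and 0 to 2 lower. HILPDA, an inhibitor of lipolysis on lipid droplets, rose from 5.74 and 6.35 CPM to 13 and 15.6 CPM (log2 change 1.24, adjusted p 0.0195). The log2 change of the droplet coat gene PLIN2 was -0.81 (adjusted p 0.0215) and that of LPIN3, a relative of LPIN1, was -0.85 (adjusted p 0.0487). HILPDA did not pass when ACBI1 replicate 1 or 2 was left out, at log2 changes of 1.38 and 1.10 (adjusted p 0.0515 and 0.0921). PLIN2 did not pass in the same cases (-0.85 and -0.77) or without DMSO replicate 2 (-0.73, adjusted p 0.0516). LPIN3 did not pass without any 1 of the 4 libraries, at log2 changes from -1.03 to -0.68, or with scaling by library size only (-0.76, adjusted p 0.0674).

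Triglyceride breakdown and fatty acid oxidation had 4 of 16 genes called, each of them lower, at a median log2 change of -0.60 and beside 10.6% called lower over all tested genes. The count was 2 without ACBI1 replicate 2, 7 without DMSO replicate 1 and with DESeq2, and 1 at an adjusted p under 0.01. The list was split in direction, with 10 negative and 6 positive log2 changes. The 6 were CPT1A, SLC25A20, ACADM, ACADL, HADHA and HADHB, at log2 changes from 0.08 to 0.51, and none of them was called. PNPLA2, the lipase that starts triglyceride breakdown, fell from 172 and 157 CPM to 69.3 and 58.7 CPM (log2 change -1.37, adjusted p 0.00688). MGLL, the monoglyceride lipase, had 245 and 183 counts with DMSO and 42 and 9 with ACBI1 (log2 change -3.16, adjusted p 0.0198). The mitochondrial enzymes CPT2 (log2 change -0.93, adjusted p 0.0266) and ACADVL (log2 change -0.84, adjusted p 0.0235) did not pass when either ACBI1 library was left out, at log2 changes of -0.94 and -0.93 for CPT2 and -0.75 and -0.94 for ACADVL, nor did CPT2 without DMSO replicate 2 (-0.78, adjusted p 0.0782). In the same edgeR fit DGAT2 and HILPDA were called higher, while PNPLA2, MGLL, CPT2, ACADVL, PLIN2, LPIN3, ACSL5 and ME1 were called lower. A place in one of these lists does not say whether a gene promotes or restrains the process named. G0S2, of the breakdown list, had a log2 change of -3.04 and was not called (edgeR adjusted p 0.0540). Whether these changes are linked was not tested.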

How the data were processed

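RNA-seq reads of 4 libraries were deposited by the authors as raw counts per gene symbol, with 5 closing lines for reads given to no gene, which were kept out of all totals. TopHat2 2.1.1, HTSeq 0.11.0 and the build hg38 are named in the submitters' processing notes; the annotation and strand setting are not given in the sources used here. Between 84.6% and 86.1% of the reads listed per library fell in genes. Genes were filtered with filterByExpr (minimum count 10, minimum total 15), scaled by TMM and tested on treatment alone with edgeR 4.0.16 (glmQLFit, glmQLFTest, two-sided, Benjamini-Hochberg over 19159 genes, R 4.3.3). The SE is the log2 change divided by the square root of F, and intervals are 95%. Pair ratios are differences of log2 CPM with a prior count of 0.5. Exonic lengths, overlaps and gene positions came from GENCODE release 29. DESeq2 1.42.0 and limma-voom (limma 3.58.1) served as alternatives, and the scripts were tested on simulated data. The members, the lists and the tests were chosen with earlier results of these data known. Statistics are given for called members, the most abundant and the most changed of each role, and at most 4 called genes of each other list. With 2 libraries a group, the smallest exact permutation p is 0.333, so no such test was run on single values. Replicates of a group differed by more than sampling noise (chi-square per degree of freedom of 144 and 94.9).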

Additional observations from a re-analysis of the deposited data

How the results depend on the processing

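Each of the 34 genes had at least 104 counts in every library. The part of depth and of the spread between 2 libraries a group in the number of calls was not tested. DGAT2 was called under every alternative run. TM7SF2, CH25H and MGLL did not reach the filter at a mean CPM of 5. Of the 34 genes, 3 were called (2 higher, 1 lower), against 17 (14 and 3) with no filter on low counts, 7 (4 and 3) with DESeq2, 1 (1 and 0) at an adjusted p under 0.01, and 2 to 8 (1 to 8 and 0 to 3) with 1 library left out, where the lone library is assumed to vary like the others. With the replicate number as a block 20 were called (16 higher and 4 lower), beside 41.3% of all tested genes (19.4% higher). The labels do not say that a number marks a shared batch, and Pearson's r of the deviations of same-numbered libraries was 0.41 over all tested genes and 0.615 over those with a mean CPM of at least 5. In the mevalonate pathway 0 genes were called higher, against 7 with the block, 6 with no filter, 1 with DESeq2 and 0 to 4 with a library left out. From squalene to cholesterol 0 were called, against 4 higher and 1 lower with the block, 3 and 1 with no filter, 0 and 1 with DESeq2, and 0 and 0 to 1 with a library left out. Of the sensing and transport genes 1 was called higher and 1 lower with the block and with no filter, and 1 lower with DESeq2 and 0 to 1 lower with a library left out. Fatty acid synthesis had 1 higher and 1 lower, against 3 and 2 with the block, 3 higher with no filter, 2 higher with DESeq2 and with scaling by library size only, 0 and 0 at 0.01, and 0 to 3 and 0 to 1 with a library left out. Of the other lipid genes 2 were higher and 19 lower, against 12 and 37 with the block, 8 higher with no filter, 7 with DESeq2, 5 with library size only, 4 with limma-voom and with a filter at a mean CPM of 5, 0 and 7 at 0.01, and 0 to 5 and 10 to 23 with a library left out. Over all tested genes 1294 were higher and 2037 lower, against 3708 and 4201 with the block, 2202 and 3316 with no filter, 172 and 611 at 0.01, and 415 to 1651 and 964 to 2641 with a library left out. The other lipid genes tested numbered 18, 12, 9, 22, 20 and 16, in the order of the lists above. Shares over all tested genes were 6.75% higher and 10.6% lower with edgeR on treatment alone, and 9.95% and 13.6% with DESeq2. For the fit with no filter the number of genes tested is not given here, so its 17 of 34 has no background share. With a library left out, the median log2 change of sterol enzymes ran from -0.13 to 1.08. That of fatty acid and triglyceride enzymes ran from 0.085 to 0.64, and the difference between these medians from -0.21 to 0.43. The other alternatives, the block among them, moved each of these by less than 1 SD between its values in the 2 pairs. Fitted changes that turned sign with a library left out, none of them called with all 4 libraries, ran from -0.23 to 1.67 for ACAT2, -0.082 to 1.24 for IDI1, -0.13 to 1.02 for FDFT1, -0.20 to 1.20 for SQLE, -0.61 to 1.07 for LSS, -0.62 to 1.09 for MSMO1, -0.032 to 0.55 for NSDHL, -1.16 to 0.87 for HSD17B7, -0.44 to 0.62 for EBP, -0.13 to 0.81 for SC5D, -0.42 to 1.53 for DHCR7, -0.77 to 0.95 for INSIG1, -0.38 to 0.54 for STARD4, -0.11 to 0.58 for ACLY, -0.048 to 0.33 for FADS1, -1.43 to 0.59 for FADS2 and -0.71 to 0.71 for LPIN1. HSD17B7 was also at -0.064 with the block and -0.12 with limma-voom. Where a library or a tool changed a call, the cause was not tested.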
